A study of Danio rerio with 70 samples.

Results

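shrek and otg are zebrafish lines that develop T-cell acute lymphoblastic leukaemia (T-ALL), and the comparison described here sets the RNA of 10 shrek leukaemias against that of 10 otg leukaemias, chosen by line and tumour stage from the labels and making up 20 of the 70 samples of the series. The shrek tumours had the genotype shrek;Tg(lck:GFP) and the otg tumours otg;Tg(lck:GFP). Both lines carry GFP under the promoter of lck, a kinase of the T lineage, and the tumour samples were GFP-sorted T-ALL cells of primary tumours, taken when most of the fish was overrun by GFP-positive cells. Sorted GFP-positive thymocytes of fish that had not yet developed leukaemia came from 2 shrek;Tg(lck:GFP) and 4 otg;Tg(lck:GFP) samples, and 5 samples of sorted thymocytes of Tg(lck:GFP) fish were labelled healthy. The statistical fit also held 9 T-ALL and 3 preleukemic samples of the line hulk;Tg(lck:GFP), and 3 preleukemic samples of fish with Tg(lck:GFP) and Tg(rag2:hMYC), a MYC transgene under the promoter of rag2. These other groups entered the filter, the scaling and the estimate of spread, and hulk tumours are also given as a further level for some genes. The labels give no age or sex, and no mutated gene for either line, so the labels could not be checked against a targeted gene.

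T-ALL is a cancer of T-cell progenitors of the thymus, cells in which the RAG1 and RAG2 proteins cut DNA during V(D)J recombination to assemble the T-cell receptor genes. In human T-ALL, activating NOTCH1 mutations, high MYC and loss of the CDKN2A locus are frequent. shrek, hulk and otg were isolated in a screen of mutagenised zebrafish for heritable T-cell malignancy.

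The shrek tumours had 14247623 to 19537019 reads counted to genes and the otg tumours 11221370 to 16330010. Levels are given in CPM, the reads of a gene scaled to a common library size after correction by edgeR's trimmed mean of M values (TMM), differences are log2 fold changes of shrek over otg, and a gene is called where its p-value from edgeR's quasi-likelihood test, adjusted by the Benjamini-Hochberg method over all genes tested, is under 0.05. Libraries of the otg tumours were more uneven. Spearman's rho between 2 shrek tumours lay between 0.871 and 0.937, and between 2 otg tumours between 0.716 and 0.924. The TMM factor was 0.854 to 1.31 in shrek tumours and 0.319 to 1.15 in otg tumours, where tumours 5, 7 and 8 stood apart with 0.504, 0.658 and 0.319. The share of all reads counted to no gene was 13.0% to 20.4% in shrek tumours and 1.9% to 14.6% in otg tumours, so that 9 of 10 shrek tumours lay above every otg tumour. This share and the line cannot be told apart as a source of difference. With the share as a covariate in the 46-sample fit, 513 genes were called between the lines, 155 higher and 358 lower in shrek. Genes were read in 3 fits: the fit of all 46 samples from the same laboratory, the same fit without otg tumours 5, 7 and 8, and a fit of the 20 tumours alone, which tests fewer genes. None of the 3 adjusts for the share of reads counted to no gene, and they have tumours in common.

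**Figure D1:**
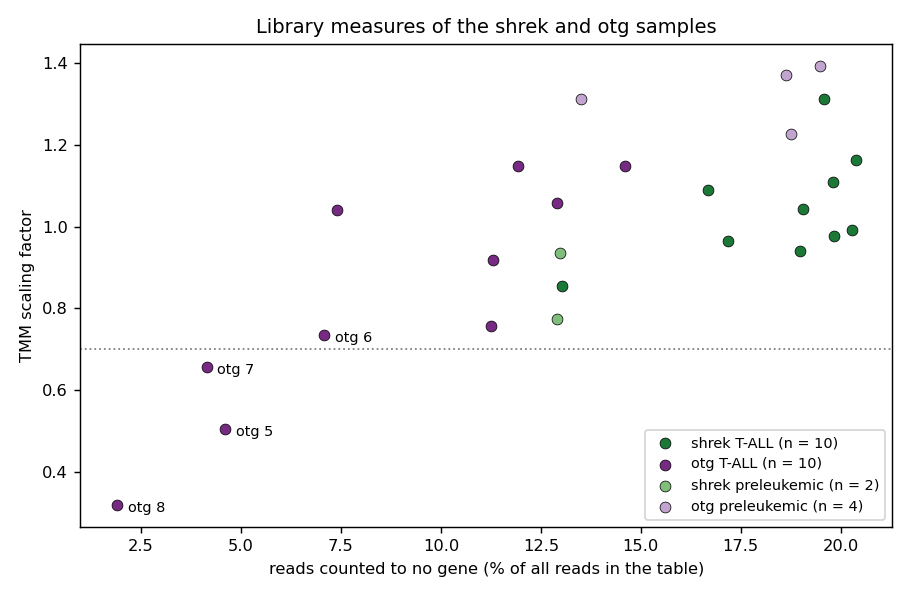
Share of all reads counted to no gene (x axis, percent) against the TMM scaling factor (y axis) for each shrek and otg sample, tumours and preleukemic thymocytes in separate colours. The dotted line is a factor of 0.7; otg tumours 5, 7 and 8 lie under it with shares of 4.61%, 4.14% and 1.9%, and otg tumour 6 lies just above it at 0.735.

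The shrek and otg leukaemias differed most clearly in a set of genes that were present in nearly all tumours of one line and close to 0 in the other, among them GALK2, AMDHD1, SBF2 and several finTRIM genes higher in shrek, and MMP15, znf1156, MID2 and cd28 lower in shrek. In the 46-sample fit 3932 of 21831 genes were called (18%), 980 higher (4.49%) and 2952 lower (13.5%) in shrek, with a median log2 fold change over all genes of -0.16. Scaled by library size alone that median was 0.18, and 2044 genes were called, 961 higher (47.0% of the calls, against 24.9% with TMM) and 1083 lower, so directions of gene groups are read beside these medians. Without otg tumours 5, 7 and 8 the count was 1435 of 21655 (6.63%), 509 higher (2.35%) and 926 lower (4.28%), and 1340 genes were called in the same direction with and without them. The fit of the 20 tumours alone called 500 of 12733 genes (3.93%), 135 higher (1.06%) and 365 lower (2.87%), and 283 genes were called in all 3 fits, 116 of them higher and 167 lower. Of all tested genes, 92 (0.421%) showed no overlap between the 10 shrek and the 10 otg values, 63 higher and 29 lower in shrek. The labels list the tumours as separate samples without tying each to a fish, so the p-values measure spread between samples. In the 46-sample fit that spread is estimated over all 8 groups, and in the 20-tumour fit over these tumours alone.

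Among the genes higher in shrek tumours, 3 metabolic enzymes separated the lines. GALK2, a kinase of N-acetylgalactosamine, had a lowest, median and highest level of 5.13, 10.6 and 17.0 CPM in shrek tumours, against 0, 0.529 and 1.37 CPM in otg tumours. The 2 groups did not overlap, and the log2 fold change was 4.12 ± 0.42 (SE, adjusted p = 2.83e-09, and 3.85e-05 in the 20-tumour fit). AMDHD1, an amidohydrolase of histidine breakdown, had 2.44, 9.73 and 89.0 CPM in shrek tumours, against 0, 0.133 and 1.01 CPM in otg tumours, again without overlap (log2 6.00 ± 0.84, adjusted p = 3.35e-06). ftcdnl1, named for its likeness to an enzyme that acts downstream in histidine breakdown, had 3.93, 15.5 and 18.8 CPM in shrek tumours, against 0, 0.606 and 3.02 CPM in otg tumours (log2 3.76 ± 0.52, adjusted p = 2.31e-06). Its groups did not overlap either. HAO2, a peroxisomal hydroxyacid oxidase, was at 13.8 CPM or more in 9 shrek tumours and at 0 in shrek tumour 6, against at most 1.45 CPM in otg tumours (log2 5.84 ± 0.95, adjusted p = 4.37e-05). AMDHD1, ftcdnl1 and HAO2 were called in all 3 fits as well.

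Other genes high in shrek tumours belong to adhesion, membrane and protease families. The cadherin gene cdh29 had 0.0479, 61.7 and 213 CPM in shrek tumours, against 0, 0 and 0.192 CPM in otg tumours (log2 10.58 ± 1.34, adjusted p = 7.25e-07). All shrek tumours but tumour 6 exceeded every otg tumour, and tumour 7 did so at only 0.967 CPM. BACE2, an aspartyl protease of the beta-secretase family, had 0, 14.0 and 57.2 CPM in shrek tumours, against 0, 0 and 1.12 CPM in otg tumours (log2 6.79 ± 1.19, adjusted p = 0.000143). SBF2, a myotubularin-family protein without phosphatase activity, had 2.54, 14.7 and 18.6 CPM in shrek tumours, against 0, 0.525 and 1.57 CPM in otg tumours (log2 4.35 ± 0.53, adjusted p = 2.52e-07). The caspase-family gene casp23 had 1.82, 4.52 and 26.2 CPM in shrek tumours, against 0, 0.126 and 1.3 CPM in otg tumours (log2 4.96 ± 0.74, adjusted p = 1.00e-05). SBF2 and casp23 did not overlap between the lines. The remaining genes named by size were mical3b, an actin-regulating monooxygenase, with a log2 fold change of 5.47, SPTBN1, a beta spectrin, with 3.59, TMTC1, a mannosyltransferase of the endoplasmic reticulum, with 3.2, and GSTCD with 2.87. GSTCD was the most abundant of these, at 4.84, 143 and 205 CPM in shrek tumours against 3.15, 12.1 and 48.3 CPM in otg tumours (adjusted p = 0.00083). In SPTBN1 shrek tumour 2 alone reached 97.5 CPM, and the next shrek tumour had 16.2 CPM.

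**Figure D2:**
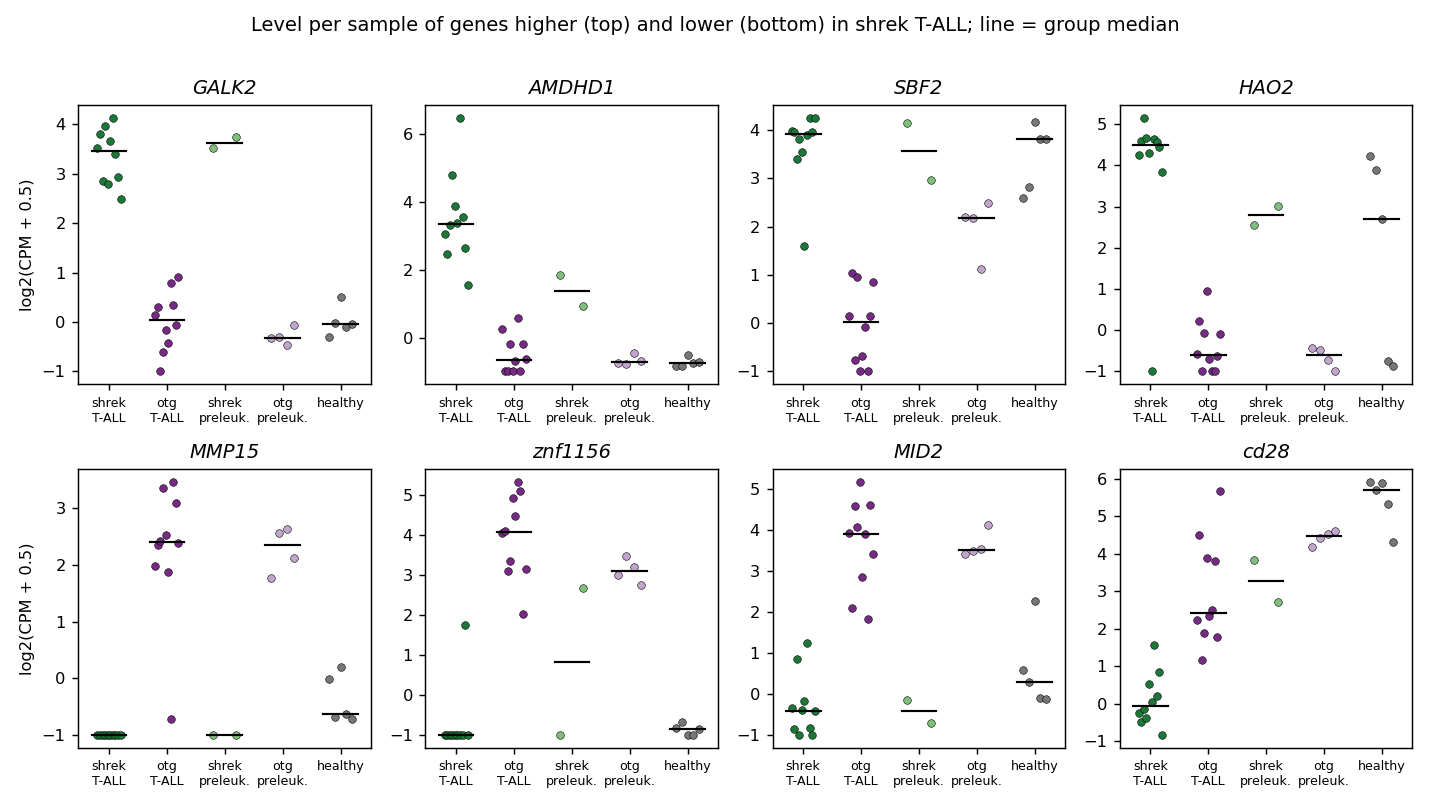
Level of 8 genes in each sample, as log2 of CPM plus 0.5 (y axis), for shrek T-ALL, otg T-ALL, shrek preleukemic, otg preleukemic and healthy thymocytes (x axis); each point is a sample and each line a group median. GALK2, AMDHD1, SBF2 and HAO2 are high in shrek tumours apart from HAO2 in 1 tumour, and MMP15, znf1156, MID2 and cd28 are low in shrek tumours.

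Several genes of otg tumours had no read at all in any shrek tumour. MMP15, a membrane-type matrix metalloproteinase, had 0 reads in all 10 shrek tumours, against 593 reads in otg tumours, where the lowest, median and highest level was 0.112, 4.80 and 10.6 CPM. Set against a floor of 3 reads over the shrek group, MMP15 was at least 316-fold lower in shrek (adjusted p = 1.77e-10). aste1a also had 0 reads in shrek tumours, against 0, 1.89 and 35.6 CPM in otg tumours with reads in 9 of 10, which makes it at least 816-fold lower. It did not separate the otg tumours evenly: 4 of them lay between 25.2 and 35.6 CPM and the other 6 at 2.43 CPM or less. lyve1b, a hyaluronan receptor known from lymphatic endothelium, had 0 reads in shrek tumours, against 0, 2.04 and 8.61 CPM in otg tumours, at least 150-fold lower. These folds compare reads pooled over each group with the floor, so they need not hold for a single tumour. The floor covers counting error only. In all, 13 genes with a mean of at least 1 CPM in otg tumours had no read in shrek tumours and 21 such genes of shrek tumours had none in otg tumours. Only 2 of the 13 had reads in all 10 otg tumours, and 9 of the 21 in all 10 shrek tumours. Otg tumours had fewer gene reads at the median, so the counts 13 and 21 do not stand at equal depth. Most of the 21 carry clone or Ensembl names. Among the named ones, minar1 had reads in 7 shrek tumours, with a lowest, median and highest level of 0, 0.807 and 37.9 CPM. In pooled reads it was at least 243-fold higher.

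Other genes lower in shrek tumours were detected in both lines. The zinc-finger gene znf1156 had 0, 0 and 2.88 CPM in shrek tumours, against 3.56, 16.4 and 40.1 CPM in otg tumours (log2 -6.02 ± 1.03, adjusted p = 9.08e-05). MID2, a tripartite-motif ubiquitin ligase that binds microtubules, had 0, 0.257 and 1.87 CPM in shrek tumours, against 3.07, 14.7 and 36 CPM in otg tumours (log2 -5.09 ± 0.77, adjusted p = 1.19e-05). Neither znf1156 nor MID2 overlapped between the lines. MID2 was also called with the share of reads counted to no gene as a covariate, and znf1156 was not. CACNG2, an auxiliary subunit of glutamate receptors in neurons, had at most 0.0580 CPM in shrek tumours, against 0, 1.55 and 39.61 CPM in otg tumours (log2 -9.36 ± 1.21, adjusted p = 9.86e-07). CKB, a creatine kinase, had 0.903, 2.04 and 9.68 CPM in shrek tumours, against 0.779, 24.7 and 112 CPM in otg tumours (log2 -3.45 ± 0.55, adjusted p = 3.32e-05). The log2 fold change was -4.37 for UCP1, a mitochondrial uncoupling protein, -3.58 for fam110a and -2.86 for dnase1l1, a DNase I relative. ALDH9A1, an aldehyde dehydrogenase, had -3.60 without overlap of the groups but an adjusted p of 0.0578 without otg tumours 5, 7 and 8. The mitochondrially encoded mt-atp8, with -2.56, was called with all libraries and not without these 3 (adjusted p = 0.169).

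The costimulatory receptor cd28, which supports activation of T cells through their receptor, was the only gene of the T-cell list among the 12 lower genes named by size. It had 0.0626, 0.472 and 2.45 CPM in shrek tumours, against 1.73, 4.87 and 50.6 CPM in otg tumours (log2 -4.09 ± 0.62, adjusted p = 1.37e-05, and 0.00223 in the 20-tumour fit). In healthy thymocytes cd28 stood at 60.3, 51.0, 58.4, 39 and 19.4 CPM, above all 10 shrek tumours and above the otg median of 4.87 CPM. Of 56 tested genes of T-cell identity and T-cell receptor signalling, 0 were called higher and 9 lower in shrek, 0 and 6 without otg tumours 5, 7 and 8, and cd28 alone in the 20-tumour fit, beside 4.49% of all genes called higher and 13.5% lower in the 46-sample fit. The 9 became 4 without otg tumour 10, 14 without otg tumour 3 and 15 without otg tumour 9. Their median was -0.23 with TMM and 0.026 with library size alone. lck, the gene whose promoter drives the GFP, had 864, 1213 and 1639 CPM in shrek tumours, against 468, 1100 and 1471 CPM in otg tumours, and was not called (adjusted p = 0.475). cd8a had medians of 340 CPM in shrek and 198 CPM in otg tumours (adjusted p = 0.967), cd4-1 488 and 126 CPM (adjusted p = 0.719) and il7r 241 and 275 CPM (adjusted p = 0.949). In shrek cd4-1 was lowest in tumour 7, at 13.3 CPM, with the next at 108 CPM. Marker genes of T cells summed to 1.02% to 2.26% of gene reads in shrek tumours and 0.387% to 1.99% in otg tumours.

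RAG1 and RAG2, which start V(D)J recombination, were at high levels in both lines. RAG1 had 1637, 6092 and 17702 CPM in shrek tumours, against 167, 1229 and 13647 CPM in otg tumours (log2 1.11 ± 0.63, adjusted p = 0.218). RAG2 had medians of 397 CPM in shrek and 293 CPM in otg tumours (adjusted p = 0.227). The ranges overlapped for both, and the 6 otg tumours with least RAG1 lay between 167 and 1549 CPM, below every shrek tumour. dntt, which adds bases at the joints, had medians of 0.751 CPM in shrek and 0.494 CPM in otg tumours and reached 73.5 CPM in shrek tumour 7 (adjusted p = 0.722). Beside 4.49% of all genes called higher, 3 of 18 genes of this list were called, all higher in shrek: ATM, the kinase that senses broken DNA ends (log2 1.25, adjusted p = 0.0166), PRKDC, the catalytic subunit of DNA-dependent protein kinase (1.05, adjusted p = 0.0379), and POLL, a gap-filling polymerase (0.84, adjusted p = 0.0444). Without otg tumours 5, 7 and 8 only ATM was called (adjusted p = 0.0380), and 0 were called in the 20-tumour fit, where before adjustment, at p under 0.05, 3 were higher and 2 lower; DESeq2 called 3 higher and 3 lower in all libraries. With the no-gene share as a covariate the log2 fold change was -0.047 for ATM and -0.23 for PRKDC. A single call was left without otg tumour 2, 5 or 7 or without shrek tumour 1, 2 or 5, and 7 were made without otg tumour 3.

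The best-known T-ALL oncogenes ranged over orders of magnitude within each line. The MYC gene ENSDARG00000007241 had 4.63, 271 and 1373 CPM in shrek tumours, against 9.96, 161 and 738 CPM in otg tumours (adjusted p = 0.475). The second MYC gene, ENSDARG00000045695, had 4.29, 50.9 and 1319 CPM in shrek tumours, against 11.2, 252 and 3657 CPM in otg tumours (adjusted p = 0.578). The 5 tumours with most of the second were shrek 8, 9 and 11, at 1063, 1319 and 883 CPM, and otg 1 and 3, at 1320 and 3657 CPM; in these tumours the first MYC gene stood at 29.9, 30.9 and 4.63 CPM in shrek and at 48.0 and 9.96 CPM in otg. NOTCH1 ENSDARG00000052094, the receptor most often mutated in human T-ALL, had 0, 4.12 and 885 CPM in shrek tumours, against 0, 0.955 and 23.5 CPM in otg tumours. It was called in the 46-sample fit (log2 3.83 ± 1.18, adjusted p = 0.0202), but not without otg tumours 5, 7 and 8 (0.113) or in the 20-tumour fit (0.114), and the next shrek tumour after tumour 7, the one at 885 CPM, had 35.7 CPM. The second NOTCH1 gene, ENSDARG00000103554, was not called (adjusted p = 0.351). NOTCH3 was called lower in shrek at low levels (log2 -2.89, adjusted p = 0.0207). It was not called without otg tumour 2 (log2 -1.37, adjusted p = 0.240), with the replicate block, with the covariate or with voom. The Notch target HES4 had medians of 2.53 CPM in shrek and 14.0 CPM in otg tumours and was called lower (log2 -2.06, adjusted p = 0.0197). HES4 was not called without otg tumour 10 (adjusted p = 0.0611) or in the 20-tumour fit (0.102).

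Across 31 tested T-ALL oncogenes 2 were called higher and 5 lower in shrek, 1 and 3 without otg tumours 5, 7 and 8, and 0 and 1 in the 20-tumour fit. The higher ones included meis1a, a homeobox cofactor (log2 3.53, adjusted p = 0.00563), for which shrek tumour 7 had 27.9 CPM and no other tumour of either line more than 1.62 CPM. Without tumour 7 the log2 fold change of meis1a was 0.89 (adjusted p = 0.368). The lower ones included MEF2C, a transcription factor of early thymic progenitors, with 0, 0.314 and 0.645 CPM in shrek tumours against 0.173, 1.39 and 12.1 CPM in otg tumours (log2 -3.31 ± 0.61, adjusted p = 0.000246). TAL1 (adjusted p = 0.354) and LMO2 (0.925) were under 6 CPM in all tumours, and TLX1 had 0 reads in shrek and 2 reads in otg tumours and was not tested. Tumour suppressors gave 1 higher and 4 lower of 41, a count that ranged from 0 without otg tumour 7 to 10 without otg tumour 4. Without otg tumours 5, 7 and 8 it was 0, with 3 higher and 4 lower before adjustment, and in the 20-tumour fit it was 0, with 3 higher and 4 lower before adjustment; DESeq2 called 8 in all libraries. PHF6 had medians of 15 CPM in shrek and 17.5 CPM in otg tumours (adjusted p = 0.116), and cdkn2a/b 0.16 and 0.32 CPM (0.172). Of 38 Notch pathway genes 1 was called higher and 2 lower, and 0 and 2 without otg tumours 5, 7 and 8. Cytokine receptors and JAK-STAT genes gave 0 higher and 5 lower of 46, among them il6r, the interleukin 6 receptor (log2 -3.58, adjusted p = 0.000217). PI3K, AKT and MTOR genes gave 1 higher and 10 lower of 50, among them IRS2, an insulin receptor substrate (log2 -1.99, adjusted p = 0.00756, and 0.0809 in the 20-tumour fit), beside 4.49% of all genes called higher and 13.5% lower. The cytokine count was 0 and 2 without otg tumours 5, 7 and 8 and 0 of 40 in the 20-tumour fit, where 2 were higher and 3 lower before adjustment (DESeq2 in all libraries 0 and 6). The PI3K count was 0 and 1 without the 3 libraries, 0 and 2 of 47 in the 20-tumour fit and 1 and 3 with library size alone.

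A run of finTRIM genes was higher in shrek tumours. finTRIM genes are a fish-specific branch of the tripartite-motif family, many of them arrayed in clusters and some induced by viruses, and because the copies are alike, reads can be split between them, so that values of single copies are uncertain. Tested genes that could be placed by symbol were put in the order of the RefSeq annotation (GRCz12tu, used only for gene order). Among these placed genes 9 finTRIM genes follow each other, and 6 of them were called, all higher in shrek. ftr38 had 22.2, 29.6 and 60.0 CPM in shrek tumours, against 2.3, 9.21 and 16.7 CPM in otg tumours (log2 1.85 ± 0.25, adjusted p = 1.77e-06). ftr36 had 1.00, 2.3 and 5.28 CPM in shrek tumours, against 0, 0 and 0.382 CPM in otg tumours (log2 4.57 ± 0.60, adjusted p = 1.23e-06). ftr30 had 0.857, 3.12 and 6.38 CPM in shrek tumours, against 0, 0.147 and 0.454 CPM in otg tumours (log2 4.06 ± 0.55, adjusted p = 1.77e-06). For ftr38, ftr36, ftr30 and also ftr31 (log2 2.38, adjusted p = 0.00016) the groups did not overlap, and each was called in all 3 fits. ftr36 and ftr30 were also called with the no-gene share as a covariate, and ftr38 and ftr31 were not. ftr33 (2.44, adjusted p = 0.000689) and ftr95 (2.95, adjusted p = 0.00573) were the others, while ftr37, ftr35 and ftr34 within the run were not called.

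**Figure D3:**
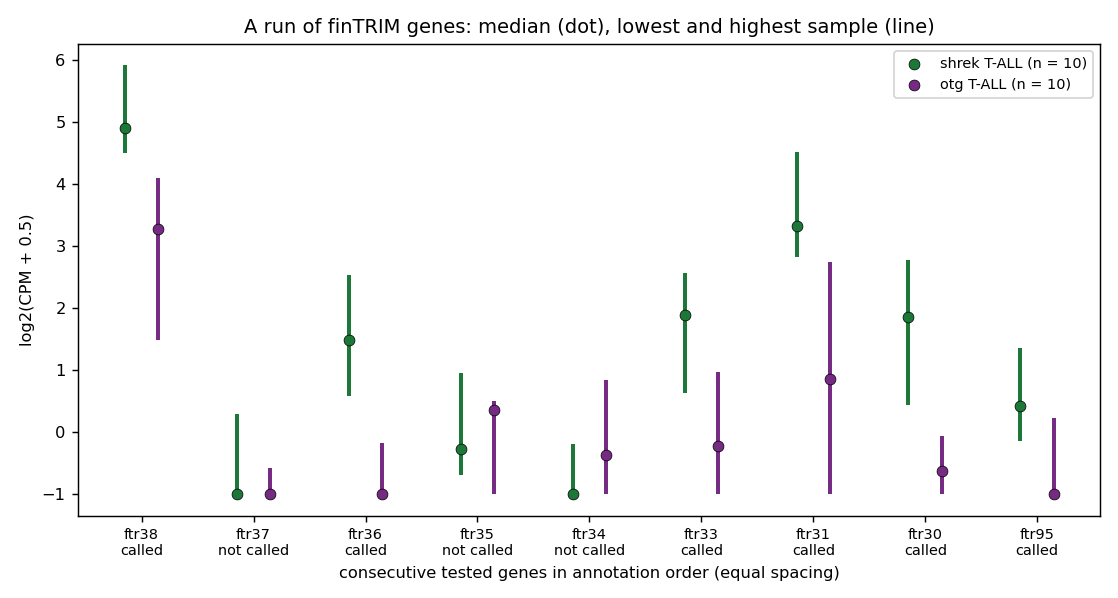
Level of 9 finTRIM genes, consecutive among the tested genes placed by symbol, in annotation order (x axis) in shrek and otg T-ALL. The y axis is log2 of CPM plus 0.5. Dots are medians over 10 tumours and lines run from the lowest to the highest tumour. The lines of ftr38, ftr36, ftr31 and ftr30 do not overlap between the 2 groups.

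The family as a whole did not move one way. Of 65 tested finTRIM genes 10 were called higher and 9 lower in shrek with all libraries. Of all genes 4.49% were called higher and 13.5% lower. Without otg tumours 5, 7 and 8 the finTRIM counts were 8 and 3, beside 2.35% and 4.28% of all genes. The 20-tumour fit called 5 and 0 of 36, beside 1.06% and 2.87% of all genes. With all libraries the median log2 fold change of the family was -0.14, beside -0.16 over all genes. Scaled by library size alone 10 were higher and 2 lower. In healthy thymocytes ftr36 had 4.53, 4.17, 1.57, 2.63 and 6.08 CPM and ftr30 4.1, 5.71, 1.18, 4.02 and 4.72 CPM, all above the otg tumours. Against healthy thymocytes ftr36 differed by a log2 of -0.46 in shrek (adjusted p = 0.584) and -5.03 in otg (1.03e-06); both contrasts use the same healthy samples. In those contrasts 30.2% of all genes were called for shrek (8.53% higher and 21.7% lower than in healthy thymocytes) and 28.0% for otg (12.8% higher and 15% lower). In preleukemic thymocytes ftr36 was at 0.320 and 0.269 CPM in shrek and 0.0495, 0.0873, 0.111 and 0.289 CPM in otg, below all 5 healthy samples in both lines.

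Called genes were also found side by side elsewhere. Of 21831 tested genes 14031 could be placed by symbol. Among these, 621 (4.43%) had a log2 fold change of at least 1 and were called with and without otg tumours 5, 7 and 8. Of the 621, 80 lay in 22 runs in which at least 3 of 6 consecutive placed genes were called. Tested genes that could not be placed may lie between them. In 5 runs all called genes were higher in shrek, in 12 all were lower and in 5 the directions were mixed. GALK2 lay in a run with slc27a2b, a fatty acid transporter (5.72 CPM median in shrek and 1.27 CPM in otg tumours, log2 2.08, adjusted p = 0.00176), and CEP152, a centriole protein (22.8 and 7.87 CPM, log2 1.74, adjusted p = 0.00614), both higher. COPS2, which lies between CEP152 and GALK2 in this order, was not called (log2 -0.52, adjusted p = 0.156). cd28 lay in a run of 4 genes called lower that held FER1L6 and prkag3b. FER1L6 had medians of 0.103 CPM in shrek and 0 CPM in otg tumours, with a highest otg value of 37.1 CPM. For prkag3b both medians were 0 CPM and the highest otg value was 1.54 CPM. Genes within the run that were not called included ttll4 (log2 0.023, adjusted p = 0.969). These runs are a description of gene order and carry no test.

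Some immune receptors and effectors of cytotoxic cells were called lower in shrek tumours. NITR receptors are a fish-specific family of immunoglobulin-domain receptors found on cytotoxic lymphocytes, with near-identical copies between which reads can be split. Of 47 tested NITR and cytotoxic effector genes 0 were called higher and 18 lower, beside 13.5% of all genes called lower, and 12 lower without otg tumours 5, 7 and 8. The 20-tumour fit tested 8 of them and called 0 (before adjustment 0 higher and 4 lower), and DESeq2 called 23 lower in all libraries. The 18 became 9 without otg tumour 10, 14 with library size alone, 0 with limma's voom, 3 with the replicate block and 3 with the no-gene share as a covariate, all of the calls lower. Their median log2 fold change was -1.9, and -1.7 without the 3 libraries, against -0.16 and -0.062 over all genes. gzma, a granzyme protease of cytotoxic granules, had 0, 7.93 and 29.0 CPM in shrek tumours, against 0.173, 29.1 and 1019 CPM in otg tumours (log2 -4.79 ± 1.11, adjusted p = 0.00272). Otg tumours 2, 5, 6 and 7 held 730, 1019, 807 and 429 CPM of it and the other 6 at most 53.3 CPM. nkl.2, an NK-lysin that perforates membranes, had at most 0.432 CPM in shrek tumours, against 0, 1.85 and 21.9 CPM in otg tumours (log2 -3.94, adjusted p = 0.00187), and nitr10a at most 0.105 CPM against 0, 0.32 and 2.5 CPM (log2 -4.97, adjusted p = 0.000579). In a run of neighbouring genes nitr2b, nitr5 and nitr4a were likewise called lower in shrek. Medians in shrek and otg tumours were 0.083 and 0.515 CPM for nitr2b, 0 and 0 CPM for nitr5 and 0 and 0.081 CPM for nitr4a. The highest otg values were 25.3, 7.06 and 17.3 CPM in the same order. Between nitr2b and nitr5 lie nitr1a (log2 -0.93, adjusted p = 0.535) and nitr1m (-2.38, adjusted p = 0.132), which were not called. EOMES, a transcription factor of cytotoxic T and NK cells, was lower at low levels (log2 -2.78, adjusted p = 0.00691, and 0.0613 without otg tumour 10). In these bulk samples fewer cells of a type and less RNA per cell cannot be told apart. Of 16 tested marker genes of NK and cytotoxic cells, 7 were lower and 0 higher; they summed to 0.0999% to 0.280% of gene reads in shrek and 0.00573% to 0.217% in otg tumours, with 0 of 17 at 0 reads in all shrek tumours and 1 in all otg tumours. Most of that sum was RUNX3, a transcription factor that T cells also use, with medians of 1582 CPM in shrek and 1011 CPM in otg tumours (adjusted p = 0.113). Whether such cells took part in the difference was not tested.

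Immediate early and heat shock genes, which respond within minutes to stimulation, stress and cell handling, were lower in shrek tumours in 12 of 64 cases and higher in none, beside 13.5% of all genes called lower. The count was 8 without otg tumours 5, 7 and 8, 1 of 51 in the 20-tumour fit, 1 with the replicate number as a block and 2 with the no-gene share as a covariate. Their median log2 fold change was -0.77, -0.82 without the 3 libraries and -0.64 with library size alone. Leaving out otg tumour 7 gave 8 calls and leaving out shrek tumour 6 gave 18. DUSP5, a phosphatase induced by ERK signalling, had 0.125, 0.960 and 5.51 CPM in shrek tumours, against 0.606, 5.31 and 31.3 CPM in otg tumours (log2 -2.51 ± 0.62, adjusted p = 0.00453). DUSP5 was called in all 3 fits but not with the covariate, the replicate block or voom. JUNB had 1.6, 21.9 and 86.7 CPM in shrek tumours, against 16.5, 47.9 and 345 CPM in otg tumours (log2 -2.13, adjusted p = 0.00886), and klf2b, a transcription factor of resting T cells, 0.599, 1.51 and 9.61 CPM against 0.459, 3.22 and 121 CPM (log2 -3.03, adjusted p = 0.00411). Neither passed in the 20-tumour fit (adjusted p = 0.0684 for JUNB and 0.0630 for klf2b). Without otg tumour 2 klf2b had a log2 fold change of -1.76 (adjusted p = 0.0450), and with the replicate block neither JUNB nor klf2b was called. The ranges of DUSP5, JUNB and klf2b overlapped between the lines. Healthy thymocytes had 128, 193, 74.3, 52.8 and 13.7 CPM of DUSP5, above every shrek tumour and above the otg median of 5.31 CPM.

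Interferon-response genes were lower in 11 of 60 cases and higher in none, beside 13.5% of all genes called lower. Without otg tumours 5, 7 and 8 there were 3, and parp9 alone was called in the 20-tumour fit. The 11 became 5 without otg tumour 5 or 7, 7 without shrek tumour 1 or 2 and 18 without otg tumour 3. Scaled by library size alone 0 were called, while DESeq2 called 1 higher and 19 lower. parp9, an interferon-induced ADP-ribosyltransferase family member, had 5.87, 10.1 and 18.7 CPM in shrek tumours, against 3.38, 23.4 and 54.9 CPM in otg tumours (log2 -1.26 ± 0.29, adjusted p = 0.00209). stat2, a transcription factor of interferon signalling, had medians of 51.8 CPM in shrek and 122 CPM in otg tumours (log2 -1.52, adjusted p = 0.0166, 0.0840 without the 3 libraries and 0.0606 without otg tumour 5 alone). Antigen presentation genes gave 0 higher and 11 lower of 59, beside the same 13.5%, and 3 lower both without the 3 libraries and in the 20-tumour fit. The 11 became 7 without otg tumour 7 and 17 without otg tumour 3, and the list's median was -0.33 with TMM and 0.048 with library size alone. mhc1uba, a class I gene of the U lineage whose members differ between zebrafish haplotypes and share sequence with one another, had 0, 2.74 and 4.76 CPM in shrek tumours, against 4.16, 13.8 and 37.6 CPM in otg tumours (log2 -2.62 ± 0.56, adjusted p = 0.00135). The groups overlapped, with 9 otg tumours above every shrek tumour. RFXAP, a subunit of the RFX complex, which activates class II genes, had a log2 fold change of -1.45 (adjusted p = 0.00437), and 0.16 with the no-gene share as a covariate. Chemokines and their receptors were lower in 20 of 67 cases, again beside 13.5% of all genes. The count was 6 without otg tumours 5, 7 and 8, 13 without otg tumour 8 alone and 2 of 21 in the 20-tumour fit. cxcr3.2, a chemokine receptor, had medians of 0.484 CPM in shrek and 1.53 CPM in otg tumours (log2 -2.58, adjusted p = 0.00148, and 0.209 without the 3 libraries), and S1PR1, the receptor that guides T cells out of lymphoid organs, had at most 0.158 CPM in shrek and 2.88 CPM in otg tumours (log2 -3.93, adjusted p = 0.00184).

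Beside 4.49% of all genes called higher and 13.5% lower, genes of growth and metabolism were lower in shrek in large numbers in the 46-sample fit. They were hardly called without otg tumours 5, 7 and 8. Cytosolic ribosomal protein genes were lower in shrek in 27 of 79 cases with them and in 0 without them, with a median log2 fold change of -0.91 with and 0.0014 without; the 20-tumour fit called 1 lower. At an unadjusted p under 0.05 the fit without the 3 libraries had 2 higher and 1 lower, and DESeq2 called 39 lower in all libraries. Leaving out 1 library at a time gave between 1 call without otg tumour 8 and 36 without otg tumour 9, and fewer than 18 without otg tumour 1, 5 or 7 or shrek tumour 1, 5, 6 or 7. Nuclear genes of oxidative phosphorylation were lower in 36 of 102 cases and in 1 without the 3 libraries, proteasome genes in 22 of 56 and 0, and mitochondrial ribosomal protein genes in 24 of 74 and 0, with 2 and 1 higher. At an unadjusted p under 0.05 the fit without the 3 libraries had 0 proteasome genes higher and 8 lower, and 4 mitochondrial ribosomal protein genes higher and 2 lower; DESeq2 called 0 and 31 of the first and 2 and 32 of the second in all libraries. Without otg tumour 8 alone the counts of calls were 15 for oxidative phosphorylation, 8 for the proteasome and 9 for mitochondrial ribosomal proteins, and without otg tumour 5 alone they were 22, 11 and 10. With the no-gene share as a covariate the median log2 fold change turned positive in these lists, at 1.2 for ribosomal proteins, 0.79 for oxidative phosphorylation, 0.37 for the proteasome and 0.63 for mitochondrial ribosomal proteins. Scaled by library size alone 2 ribosomal protein genes were called higher and 1 lower. In that scaling oxidative phosphorylation gave 1 and 4, the proteasome 0 and 0, and mitochondrial ribosomal proteins 4 and 1. The ribosomal protein share of gene reads was 12.8% to 31.2% in shrek tumours and 12.4% to 48.3% in otg tumours, with the highest value in otg tumour 8. RPL14 had 663, 1558 and 2632 CPM in shrek tumours, against 1240, 3645 and 23010 CPM in otg tumours (log2 -1.72, adjusted p = 0.00403, and 0.249 without the 3 libraries). ATP5F1C, a subunit of ATP synthase, was called in all 3 fits (log2 -1.69, adjusted p = 0.00033), but not with the covariate. PSMB6, a proteasome subunit (log2 -1.29, adjusted p = 0.00608), and MRPS10 (-1.55, adjusted p = 0.00108) were called only with the 3 libraries or in the 20-tumour fit, which holds them too. Glycolysis genes gave 1 higher and 9 lower of 44, 3 calls without otg tumour 5, 6 without otg tumour 7 and 0 without the 3 libraries, where 1 was higher and 3 were lower before adjustment (DESeq2 in all libraries 2 and 12); their median was -0.65, and 0.16 with the covariate. LDHB, a lactate dehydrogenase subunit, had 155, 289 and 482 CPM in shrek tumours against 237, 491 and 3398 CPM in otg tumours (log2 -1.79, adjusted p = 0.000482, and 0.140 without).

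The 46-sample counts of the lists that follow stand beside 4.49% of all genes called higher and 13.5% lower. Mitosis genes were higher in shrek in 13 of 60 cases, in 1 without otg tumours 5, 7 and 8 and in 0 in the 20-tumour fit, with a median log2 fold change of 0.78, and 0.47 without the 3 libraries. The no-gene share as a covariate gave a median of 0.13 and 0 calls. At an unadjusted p under 0.05 the 20-tumour fit had 17 higher and 0 lower, and DESeq2 called 19 higher and 0 lower in all libraries. The 13 became 1 without shrek tumour 7, 3 to 7 without shrek tumour 1, 2 or 5 or otg tumour 3, 5, 7 or 8, and 22 without otg tumour 6. kif20ba, a kinesin of cell division, had 6.39, 14.8 and 47.5 CPM in shrek tumours, against 0, 6.16 and 13.8 CPM in otg tumours (log2 1.68 ± 0.46, adjusted p = 0.00886), and espl1, the protease separase, had medians of 91.5 CPM in shrek and 42.0 CPM in otg tumours (log2 1.36, adjusted p = 0.0290, and 0.173 without). DNA replication genes gave 3 higher and 2 lower of 68, among them RRM2, a ribonucleotide reductase subunit (log2 1.16, adjusted p = 0.0366). RRM2 was not called in the 20-tumour fit (adjusted p = 0.185) and stayed called in 13 of 20 fits that each left out 1 tumour. Called in all 3 fits were rps27l, with 16.3, 24.6 and 43.7 CPM in shrek tumours against 17.0, 66.0 and 220 CPM in otg tumours (log2 -1.94 ± 0.36, adjusted p = 0.000284), and GADD45B, a stress-induced gene (log2 -2.67, adjusted p = 0.00242). Neither was called with the no-gene share as a covariate, and GADD45B was also not called with the replicate block or voom. BCL2 family genes were lower in 6 of 24 cases and in 0 without the 3 libraries, where 0 were higher and 4 lower before adjustment (DESeq2 in all libraries 0 and 6); 2 or 3 were called without otg tumour 5 or 7 or shrek tumour 1, 2, 5 or 8. mcl1a, an inhibitor of apoptosis, had medians of 306 CPM in shrek and 568 CPM in otg tumours (log2 -1.21, adjusted p = 0.00654, and 0.143 without). casp8, an initiator caspase, had a log2 fold change of -1.07 (adjusted p = 0.00386, and 0.203 without). With the no-gene share as a covariate the log2 fold change was 0.12 for rps27l, 0.0499 for mcl1a and 0.17 for casp8. Sterol and fatty acid synthesis genes gave 3 higher and 6 lower of 46, with ACLY, which makes cytosolic acetyl-CoA, called in all 3 fits (log2 0.81 ± 0.20, adjusted p = 0.00453). ACLY was not called with the covariate. Polycomb and DNA methylation genes gave 1 higher and 3 lower of 50, and 0 without the 3 libraries, where 3 were higher and 1 lower before adjustment (DESeq2 in all libraries 6 and 5); the 4 became 1 without otg tumour 5, 0 without otg tumour 7, 7 without otg tumour 9 and 9 without otg tumour 4.

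Germ-cell and meiosis genes gave no call in the 46-sample fit. Of 49 tested 0 passed edgeR's adjusted threshold, with 1 higher and 0 lower before adjustment and 1 higher by DESeq2, and 0 passed in the other 2 fits. DDX4, a germ-cell helicase, reached 12.1 CPM in shrek tumour 1 and 14.2 CPM in otg tumour 6, and PIWIL1, a partner of germline small RNAs, 17.1 and 28.6 CPM in the same tumours (adjusted p = 0.719 and 0.563). Motile cilium genes gave 2 higher and 2 lower of 101, beside 4.49% of all genes called higher and 13.5% lower. DNAH7, an axonemal dynein heavy chain, had 4.47, 15.6 and 71.5 CPM in shrek tumours, against 0, 0.990 and 6.31 CPM in otg tumours (log2 3.69 ± 0.70, adjusted p = 0.000327), and was called in all 3 fits but not with the no-gene share as a covariate. The groups overlapped, with 7 of 10 shrek tumours above every otg tumour. Of 13 Hox cluster genes 1 was called, lower in shrek.

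**Figure D4:**
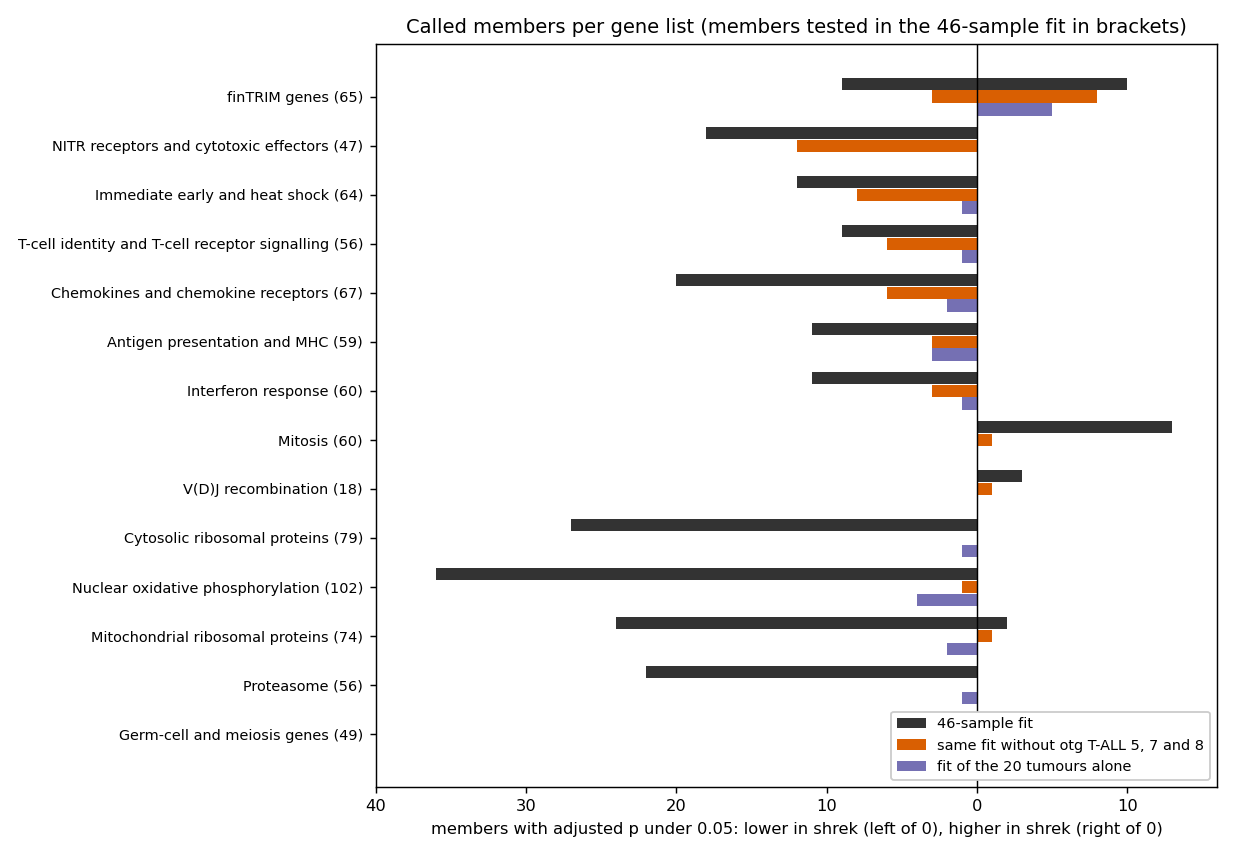
Number of members of each gene list called lower (left of 0) or higher (right of 0) in shrek than in otg T-ALL, with the number tested in brackets; dark bars are the 46-sample fit, orange bars the same fit without otg T-ALL 5, 7 and 8, and violet bars the fit of the 20 tumours alone. Without the 3 libraries 11 finTRIM, 12 NITR and 8 immediate early and heat shock genes are called, and 0 ribosomal, 1 oxidative phosphorylation and 0 proteasome genes; the medians of these last 3 lists are negative with TMM and positive with the no-gene share as a covariate.

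Markers of other cells that a sort could carry over were called mostly lower in shrek tumours, as were genes in general. With all libraries 4.49% of all genes were called higher and 13.5% lower. Fewer markers were called without otg tumours 5, 7 and 8, where the shares of all genes were 2.35% higher and 4.28% lower. With the no-gene share as a covariate at most 2 members of any of these lists were called, and the medians of the macrophage, fibroblast, liver and muscle lists were 0.0068, 0.21, 0.084 and 0.37, against -1.5, -1.1, -2.4 and -0.96 without it. Macrophage markers gave 1 higher and 13 lower of 29, and 1 and 1 without them; they summed to 0.00463% to 0.184% of gene reads in shrek and 0.00360% to 0.228% in otg tumours, mostly from cd74a and cd74b, and of 29 genes 1 was at 0 reads in all shrek and 2 in all otg tumours. The defining marker MPEG1 had 0 reads in shrek tumours and 2 reads in otg tumours. c1qb, a complement gene of macrophages, had at most 2.26 CPM in shrek and 16.1 CPM in otg tumours. Neutrophil markers were lower in 7 of 13 cases and in 0 without the 3 libraries, with sums of 0.00366% to 0.0254% of gene reads in shrek and 0.00104% to 0.145% in otg tumours and no gene at 0 in all tumours of either line; npsn, a neutrophil protease, had at most 4.65 CPM in shrek and 131 CPM in otg tumours. B-cell markers gave 1 higher and 5 lower of 19, 3 calls without otg tumour 10 or without shrek tumour 11, and 1 gene at 0 reads in each line, with SYK, a kinase of B-cell and early T-cell receptor signalling, at 0.501, 1.08 and 3.21 CPM in shrek tumours against 1.07, 3.60 and 70.9 CPM in otg tumours (log2 -2.82, adjusted p = 0.00242, and -1.18 with 0.0747 without otg tumour 10). Fibroblast markers gave 1 higher and 9 lower of 31, and 0 and 4 without the 3 libraries; DCN, a matrix proteoglycan, had at most 1.04 CPM in shrek and 17.4 CPM in otg tumours, and TAGLN, of contractile cells, at most 8.73 CPM in shrek and 827 CPM in otg tumours. Liver markers were lower in 13 of 28 cases and in 2 without the 3 libraries (7 without otg tumour 7 alone), and the carrier protein tfa had at most 6.05 CPM in shrek and 76.9 CPM in otg tumours. Muscle markers gave 1 and 7 of 30, skin 0 and 7 of 34, thymic epithelium 0 and 7 of 24, endothelium 1 and 3 of 19, kidney 1 and 2 of 22, erythroid cells 0 and 2 of 18, exocrine pancreas 0 and 1 of 21, and thrombocytes, haematopoietic progenitors and vitellogenins 0 of 12, 15 and 7 by edgeR. Before adjustment 1 thrombocyte gene was higher and 3 were lower, 0 progenitor genes were higher and 1 lower, and 0 vitellogenins differed (p under 0.05), and DESeq2 called 0 of the first 2 and 1 vitellogenin. The part of such cells in the differences between the lines was not tested.

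The same lines could be compared before leukaemia, in other samples. shrek preleukemic thymocytes had 2 libraries of 47598816 and 56471528 reads, and otg preleukemic thymocytes 4 of 12611959 to 17438868 reads. The fit called 2342 of 21831 genes (10.7%), 1049 higher (4.81%) and 1293 lower (5.92%) in shrek, but 105 without shrek preleukemic replicate 1, 103 without replicate 2, and 1213, 1290 and 1234 without otg preleukemic replicates 1, 3 and 4. Calls higher in shrek were 44.8% of all calls with TMM, 19.2% with DESeq2's size factors and 12.9% with library size alone. GALK2 had 11 and 12.8 CPM in shrek preleukemic thymocytes, against 0.297, 0.306, 0.222 and 0.463 CPM in otg preleukemic thymocytes (log2 5.18 ± 0.73, adjusted p = 3.88e-05). ftcdnl1 had 20.3 and 20.3 CPM in shrek, against 0.743, 0.437, 0.389 and 0.347 CPM in otg (adjusted p = 0.00062), and casp23 29.4 and 16.2 CPM against 0.347, 0.393, 0.222 and 0.463 CPM (adjusted p = 0.00264). AMDHD1 had 3.11 and 1.39 CPM in shrek, against 0.0990, 0.0873, 0.222 and 0.116 CPM in otg (adjusted p = 0.0448). In these 4 genes both shrek samples lay above all otg samples, as in the tumours.

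Several genes at or near 0 in shrek tumours were also at or near 0 in shrek preleukemic thymocytes, and others were not. MMP15 was at 0 in both shrek samples, against 2.92, 5.41, 5.72 and 3.87 CPM in otg (adjusted p = 0.00062), and aste1a at 0 in both, against 10.1, 9.95, 11.4 and 13.5 CPM in otg (adjusted p = 0.00948). CACNG2 was at 0 in both, against 12, 7.42, 36.5 and 15.2 CPM (adjusted p = 0.00876), and MID2 at 0.412 and 0.112 CPM, against 10.2, 10.8, 11 and 17.1 CPM (adjusted p = 0.0303). lyve1b was at 0.869 and 0 CPM in shrek, against 0.149, 0.349, 0.5 and 0.173 CPM in otg (log2 0.56, adjusted p = 0.865). znf1156 was at 0 in 1 shrek sample and at 5.90 CPM in the other, against 7.48, 10.7, 8.77 and 6.24 CPM in otg, and was not called (adjusted p = 0.605). cd28 was at 13.8 and 6.08 CPM in shrek, against 17.7, 21, 22.5 and 23.8 CPM in otg (log2 -1.10, adjusted p = 0.542). NSG2, a vesicle protein gene best known from neurons, was the strongest gene named from this comparison that was higher in shrek, at 42.9 and 87.1 CPM in shrek against 0.545, 1.09, 0.666 and 0.520 CPM in otg (log2 6.50, adjusted p = 0.00876), with medians of 31.3 CPM in shrek and 0.497 CPM in otg tumours.

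Of the 63 genes whose tumour values did not overlap and were higher in shrek, 55 had the same sign in preleukemic thymocytes and 32 were called there in the same direction; of the 29 lower ones, 23 had the same sign and 10 were called. None was called in the opposite direction. Over all tested genes 39.4% of those higher and 50.8% of those lower in shrek tumours had the same sign, and 4.14% and 4.01% were called in the same direction. For the genes called in tumours with and without otg tumours 5, 7 and 8, these shares were 71.0% and 72.6% with the same sign and 24.8% and 7.55% called. The 2 contrasts share no sample.

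**Figure D5:**
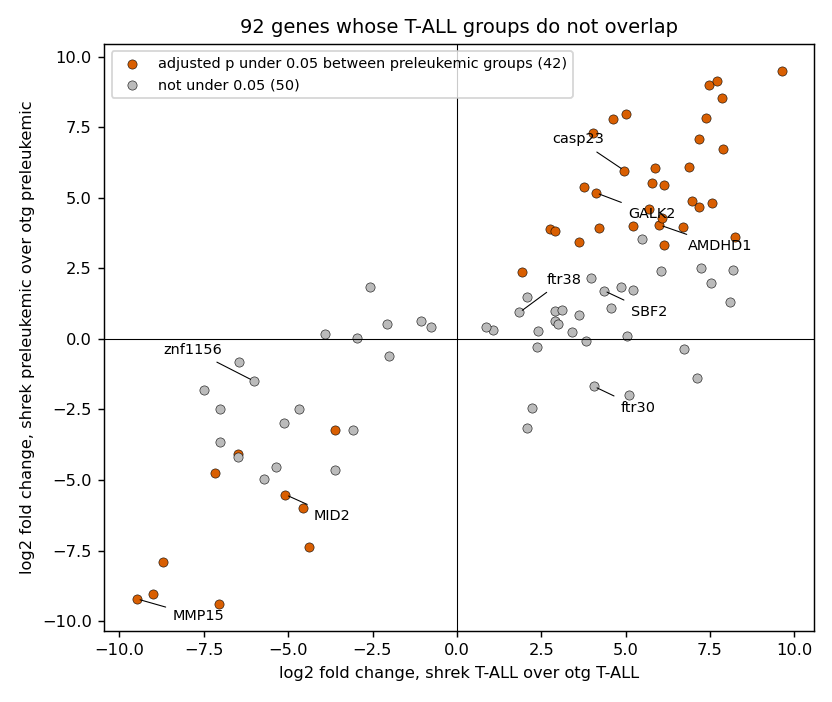
log2 fold change of shrek over otg in T-ALL (x axis) and in preleukemic thymocytes (y axis) for the 92 genes whose 10 shrek and 10 otg tumour values do not overlap; orange points are the 42 genes with an adjusted p under 0.05 between the preleukemic groups and grey points the other 50. Most points lie at lower left or upper right, with the same sign in both comparisons, and ftr30 is among the exceptions.

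Some lists of growth genes held many calls higher in shrek before leukaemia, counts that rested on both shrek libraries. In preleukemic thymocytes mitochondrial ribosomal protein genes were called higher in shrek in 47 of 74 cases, oxidative phosphorylation genes in 33 of 102 and proteasome genes in 30 of 56, against 4.81% of all genes called higher. With either shrek library left out these lists held 1, 0 and 0 calls, and the median log2 fold changes lay between 1.4 and 1.7. Scaled by library size alone the counts were 6, 4 and 0, with medians of 0.94, 0.95 and 0.83 beside -0.82 over all genes, and with TMM the medians were 1.6, 1.6 and 1.5 beside -0.19. Cytosolic ribosomal protein genes, with a TMM median of 1.6, gave 1 higher and 0 lower of 79. Genes of V(D)J recombination gave 6 higher of 18. Cytokine receptor and JAK-STAT genes gave 0 higher and 10 lower of 46, beside 5.92% of all genes called lower. With either shrek library left out the V(D)J and cytokine lists held 0 and 1 calls. The no-gene share was 12.9% and 13.0% in shrek and 13.5% to 19.5% in otg preleukemic libraries, and the ribosomal protein share 22.7% and 29.2% in shrek and 10.6% to 16.5% in otg, so that both measures moved with the line. With the no-gene share as a covariate the mitochondrial ribosomal protein, oxidative phosphorylation and proteasome counts were 13, 3 and 6, all higher in shrek. The difference between lines itself differed between tumours and preleukemic thymocytes for 3578 of 21831 genes (16.4%), 1546 upward in tumours (7.08%) and 2032 downward (9.31%), for 158 without shrek preleukemic replicate 1 and for 926 without replicate 2. With the no-gene share as a covariate it was 21. ftr30 was higher in shrek tumours but at 0.320 and 0.292 CPM in shrek against 1.19, 0.611, 1.55 and 0.636 CPM in otg preleukemic thymocytes (interaction log2 5.74, adjusted p = 0.00413). gzma was at 131 and 147 CPM in shrek preleukemic thymocytes, against 42.8, 62.8, 32.8 and 35.4 CPM in otg (interaction log2 -6.47, adjusted p = 0.0319), and mcl1a at 1722 and 1299 CPM against 411, 550, 361 and 452 CPM (interaction log2 -2.98, adjusted p = 0.00400).

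Healthy thymocytes and hulk tumours place the levels of these genes. Counts of the healthy samples were deposited separately from those of the tumours. Multimapping reads made up 5.62% to 16.9% of all reads in healthy samples, 15.8% to 27.7% in shrek and 8.76% to 33.0% in otg tumours. Whether handling differed was not tested. GALK2 was at 0.310, 0.491, 0.919, 0.431 and 0.472 CPM in healthy thymocytes, near the otg tumours, and averaged 6.17 CPM in hulk tumours; its log2 fold change against healthy thymocytes was 4.30 in shrek (adjusted p = 5.66e-07) and 0.18 in otg (0.813). AMDHD1 was at most 0.197 CPM in healthy thymocytes. casp23 was instead at 16.7, 15.6, 19.8, 10.2 and 3.3 CPM in healthy thymocytes, with log2 fold changes of -0.69 in shrek (adjusted p = 0.476) and -5.65 in otg (5.2e-06), and SBF2 at 5.52, 6.56, 17.5, 13.7 and 13.6 CPM, with 0.24 in shrek (0.778) and -4.11 in otg (3.66e-06). For the genes lower in shrek, MMP15 was at 0.497, 0.123, 0.656, 0.144 and 0.105 CPM in healthy thymocytes and averaged 4.16 CPM in hulk tumours, and znf1156 was at most 0.123 CPM in healthy thymocytes and 8.14 CPM on average in hulk tumours. cd28 was lower than in healthy thymocytes in both lines, by a log2 of -5.99 in shrek (adjusted p = 9.34e-08) and -1.9 in otg (0.0207).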

How the data were processed

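RNA was measured by sequencing of stranded polyadenylated libraries. The deposited tables hold raw counts of reads per gene, with no normalization by the authors. Per the submitters' processing notes reads were aligned with STAR to GRCz10; the annotation release and strand setting are not given in the sources used here. Of 35117 genes 27000 have a symbol in the files or in the RefSeq table, and 9 columns that match no labelled sample were not used. Summary rows (unmapped, multimapping, no gene, ambiguous) held 36.1% to 50.9% of reads in shrek and 17.9% to 49.3% in otg tumours and were left out of library sizes and tests.

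The 46 samples of the same laboratory, in 8 groups, were fitted together with edgeR 4.0.16 (robust quasi-likelihood test, TMM) in R 4.3.3, after its filter of 10 reads per gene and 15 in total (21831 genes), with p-values adjusted by Benjamini-Hochberg. Alternatives used limma 3.58.1 (voom), DESeq2 1.42.0, other scalings and filters, and left out each library in turn; the fit without otg tumours 5, 7 and 8 and the covariate for reads counted to no gene were chosen after seeing the data. On simulated data of 21189 genes the tumour comparison recovered 38.0% of 100 genes changed by 1 on the log2 scale and 87.0% of 100 changed by 2. Only these genes were changed, and all lay above a minimum level in otg tumours. Counts were drawn independently, with the same spread of a gene in all groups, so the greater unevenness of the otg libraries was not reproduced. The shares recovered may not hold for these libraries, for genes at lower levels or where many more genes change.

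Genes named by size were called, had a log2 fold change of at least 1 and a mean of at least 8 CPM in the higher group, with 80% of its samples beyond the other group, up to 12 each way; a list gave up to 4 by adjusted p, and the preleukemic comparison and genes at 0 reads in a line up to 6 each way. Neighbours of the named genes in gene order were named after their values were seen. Members and lists were chosen with earlier results of these data known. The floor for genes at 0 reads covers counting error only. Standard errors were derived as the absolute log2 fold change over the square root of the quasi-likelihood F statistic. That statistic takes in the spread between samples. The errors are approximate, above all for genes near 0 in a line. Correlations between same-numbered tumours showed no clear pairing, and the labels do not say what the replicate numbers mark. A few genes are not reported here.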

Additional observations from a re-analysis of the deposited data

Results flagged for a closer look

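Of 261 groups of 4 to 10 samples examined for a library far from the others, 24 held one. The rule flags about 1 in 20 groups by chance where values are normally distributed. The groups have libraries in common, and some genes were at 0 in most samples. The 24 therefore cannot be set against that rate. Shrek tumour 6 was lowest in HAO2 at 0.00 CPM (next 13.8), SBF2 at 2.54 CPM (next 10.1) and ftcdnl1 at 3.93 CPM (next 12.2), and highest in CKB at 9.68 CPM (next 3.43). Shrek tumour 7 was highest in meis1a at 27.9 CPM (next 1.62) and lowest in cd4-1 at 13.3 CPM (next 108). Shrek tumour 11 was highest in POLL at 21.5 CPM (next 13.9) and lowest in RRM2 at 35 CPM (next 129). Other shrek tumours stood apart in SPTBN1, where tumour 2 had 97.5 CPM (next 16.2), in UCP1, where tumour 3 had 2.08 CPM (next 0.719), and in znf1156, where tumour 9 had 2.88 CPM and the others 0.00. Shrek tumour 8 had the lowest share of reads counted to no gene, 13.0% (next 16.7%), and shrek tumour 1 the highest share of multimapping reads, 27.7% (next 21.9%).

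Among otg tumours, tumour 5 was highest in LMO2 at 5.39 CPM (next 1.33) and cdkn2a/b at 4.34 CPM (next 0.936). Otg tumour 10 was highest in SYK at 70.9 CPM (next 4.80) and casp23 at 1.3 CPM (next 0.303). Otg tumour 7 was highest in BACE2 at 1.12 CPM (next 0.173) and lowest in MMP15 at 0.112 CPM (next 3.15), and otg tumour 2 was lowest in mt-atp8 at 5.69 CPM (next 64.8). Of the otg preleukemic samples, replicate 2 was highest in EOMES at 7.77 CPM (next 4.70) and lowest in atp1a1a.5 at 4.63 CPM (next 13.6), replicate 3 highest in GREB1L at 192 CPM (next 0.347) and replicate 4 highest in MID2 at 17.1 CPM (next 11).

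For 22 named genes the difference between the lines differed between tumours and preleukemic thymocytes by edgeR's interaction test. The signed log2 difference of shrek over otg was higher in tumours by 3.69 for SPTBN1 (adjusted p = 0.0453), 5.74 for ftr30 (0.00413), 2.67 for ftr31 (0.0494), 7.38 for atp1a1a.5 (0.0153) and 9.28 for GREB1L (0.0403). atp1a1a.5 and GREB1L were lower in shrek at both stages, and less so in tumours. Over fits without 1 tumour their tumour log2 fold change was -3.73 to -2.76 for atp1a1a.5 and -3.99 to -2.81 for GREB1L. GREB1L is the gene in which otg preleukemic replicate 3 stood apart, and its difference between tumours stayed called in 10 of 20 fits that each left out 1 tumour. The signed difference was lower in tumours for genes of cytotoxic cells and other cell types, by -4.76 for nitr10a (adjusted p = 0.0325), -6.47 for gzma (0.0319), -7.13 for nkl.2 (0.00591), -4.17 for c1qb (0.00782), -6.11 for TAGLN (0.0145) and -8.98 for lyve1b (0.00414). Among other genes the value was -3.00 for CKB (adjusted p = 0.0450), -2.98 for mcl1a (0.00400), -2.63 for rps27l (0.0144), -3.45 for GADD45B (0.0431), -3.23 for LDHB (0.00414), -2.08 for RFXAP (0.0462), -3.20 for RPL14 (0.0112), -2.91 for ATP5F1C (0.00440), -1.71 for mrpl20 (0.0428), -2.70 for MRPS10 (0.00702) and -3.09 for PSMB6 (0.00422). Of these, mrpl20 was higher in shrek at both stages, and less so in tumours. Only 21 genes of all tested passed this test with the share of reads counted to no gene as a covariate.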

How the results depend on the processing

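The number of genes called between shrek and otg tumours, 3932 as reported, was 2044 with library size alone, 500 with only the compared groups in the fit, 1188 with limma's voom, 1435 without otg tumours 5, 7 and 8 and 513 with the share of reads counted to no gene as a covariate. Leaving out 1 library at a time gave 2893 to 4662. The 2342 calls between preleukemic groups became 954 with library size alone, 1500 with no filter, 9520 with only the compared groups, 10199 with voom, 3806 with DESeq2, 4076 without the 3 otg tumours and 1113 with the covariate, and 103 to 1740 with 1 library left out. The 3578 genes of the interaction became 1224, 2229, 7239 and 21 with library size alone, only the compared groups, voom and the covariate, and 158 to 3096 with 1 library left out. Other scalings, filters and DESeq2 kept the counts within 1.5 times.

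The replicate numbers shared by 9 pairs of tumours showed no clear pairing (correlations of deviations -0.075 to 0.12, 0 of 9 best with its own number). The labels do not say whether the numbers mark a shared clutch, batch or day. With the numbers as a replicate block 1925 genes were called between tumours, 783 higher and 1142 lower in shrek, 2112 between preleukemic groups and 2960 in the interaction.

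Of 95 named genes 79 were called. Of these, 67 stayed called whichever tumour library was left out, and 59 without otg tumours 5, 7 and 8. The 20-tumour fit tested 60 of the 79 and called 45. Most of the 79 were not called with the share of reads counted to no gene as a covariate. Among those lost were znf1156, CKB, UCP1, GSTCD, TMTC1, fam110a, dnase1l1, MEF2C, il6r, gzma, S1PR1 and DCN. GALK2, AMDHD1, HAO2, SBF2, MMP15, MID2 and cd28 were among those still called. With the covariate the log2 fold change changed sign for mt-atp8 (0.0190), ATM (-0.0473), PRKDC (-0.228), mcl1a (0.0499), rps27l (0.121), casp8 (0.167), LDHB (0.348), RFXAP (0.163), RPL14 (0.742), MRPS10 (0.285), PSMB6 (0.842) and tfa (0.514); the cause was not tested. Signs of 14 named genes that were not called changed in at least 1 alternative.

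Counts of called list members moved with the same settings. finTRIM genes, 19 as reported, were 12 with library size alone, 14 with voom, 15 with the block, 5 with only the compared groups, 4 with the covariate and 11 without the 3 libraries. NITR and cytotoxic genes, 18 as reported, were 14, 0, 3, 0, 3 and 12 in the same order, immediate early and heat shock genes, 12 as reported, 5, 8, 1, 1, 2 and 8, and mitosis genes, 13 as reported, 9, 0, 19, 0, 0 and 1. With library size alone the calls were 3 of ribosomal proteins, 5 of mitochondrial ribosomal proteins, 5 of oxidative phosphorylation, 0 of the proteasome, 3 of glycolysis, 9 of chemokines, 4 of antigen presentation and 0 of the interferon response. With the block they were 9, 4, 14, 3, 6, 4, 6 and 6, with voom 0, 2, 4, 0, 0, 1, 1 and 2, with only the compared groups 1, 2, 4, 1, 1, 2, 3 and 1, and with the covariate 3, 2, 0, 0, 0, 1, 0 and 0. Not all of these calls were lower in shrek. With library size alone 2 ribosomal protein and 4 mitochondrial ribosomal protein genes were higher, and 1 of each was lower. With the covariate the 3 ribosomal protein and 2 mitochondrial ribosomal protein calls were all higher. DNA replication genes were 10 with the block and 5 as reported. With no filter ribosomal protein calls were 17, and interferon calls with DESeq2 were 20. Marker calls with the covariate were 0 to 2 in every list, with voom 0 to 3, with only the compared groups 0 to 4 and with the block 0 to 5. With 1 library left out, calls ranged from 7 to 17 for antigen presentation, 9 to 20 for NITR, 1 to 22 for mitosis, 5 to 18 for interferon, 13 to 25 for chemokines, 8 to 33 for the proteasome, 15 to 49 for oxidative phosphorylation, 9 to 29 for mitochondrial ribosomal proteins, 1 to 36 for ribosomal proteins, 6 to 10 for neutrophils, 7 to 15 for liver, 11 to 17 for macrophages and 4 to 15 for T-cell genes. In simulated data, with changes only in genes above a minimum level, 38% of genes changed by 1 on the log2 scale were recovered. Changes of that size can be missed.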

Other observations

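A few further genes differed between the lines before leukaemia. RRM2, a ribonucleotide reductase subunit, had 1264 and 1371 CPM in shrek preleukemic thymocytes, against 198, 170, 143 and 150 CPM in otg preleukemic thymocytes (log2 3.00, adjusted p = 0.00953 by edgeR). mrpl20, of the large mitochondrial ribosomal subunit, had 42.6 and 37.7 CPM in shrek preleukemic thymocytes, against 4.46, 8.12, 6.11 and 3.99 CPM in otg (log2 2.82, adjusted p = 0.00140). parp9 was lower in shrek before leukaemia as well, at 5.88 and 3.12 CPM in shrek, against 24.4, 22.3, 23.6 and 24.9 CPM in otg (log2 -2.40, adjusted p = 0.0124).

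Shrek tumour 7 combined several extreme values: 885 CPM of NOTCH1 ENSDARG00000052094, 73.5 CPM of dntt and 27.9 CPM of meis1a, with 13.3 CPM of cd4-1.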
